A study of Homo sapiens with 6 samples.

Results

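The genes described here are 10 sensors and adaptors through which a cell detects foreign or misplaced nucleic acid: RIGI, IFIH1, DHX58, MAVS, TLR3, TICAM1, TICAM2, CGAS, STING1 and TBK1. They were taken by symbol, matched to their Ensembl identifiers, and are 10 of the 60612 identifiers in the deposited count table. All 10 passed the filter on low counts and were among the 20334 genes tested. RNA was sequenced from T24 cells, a long-established line from a human bladder carcinoma, in 2 groups of 3 libraries. In the group labelled FOXF1-activated, a lentivirus delivered a short hairpin made from a small activating RNA against FOXF1, a forkhead transcription factor gene. In the negative control group the hairpin came from a control duplex, and the labels give that group's genotype as WT, so cells of both groups carry a lentiviral hairpin. The protocol describes puromycin selection of the stably infected cells, and total RNA was depleted of ribosomal RNA before stranded paired-end sequencing. Nothing in the labels ties the 3 libraries of a group to separate cultures, so the p-values cover the spread between libraries, which may be technical.

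Cells carry separate detectors for RNA and DNA. In the cytosol, RIG-I (RIGI) and MDA5 (IFIH1) bind double-stranded or uncapped RNA, LGP2 (DHX58) modulates them, and they signal through MAVS on mitochondria. In endosomes, Toll-like receptor 3 (TLR3) binds double-stranded RNA and signals through TRIF (TICAM1), which Toll-like receptor 4 reaches through the bridging adaptor TRAM (TICAM2). Cytosolic DNA is bound by cGAS (CGAS), whose cyclic dinucleotide product activates STING1. All of these routes converge on the kinase TBK1, which phosphorylates IRF3 and so drives interferon genes. Several of the sensor genes are themselves induced by interferon.

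The gene that the activating hairpin was aimed at went against the label. FOXF1 was at 5.93, 4.78 and 5.10 CPM (counts scaled to library size with TMM factors) in libraries labelled FOXF1-activated, and at 7.50, 7.10 and 7.95 CPM in the negative controls (log2 fold change -0.51, edgeR adjusted p = 0.0109). Every direction below therefore compares libraries by their labels, FOXF1-activated over negative control, and does not follow a measured rise in FOXF1. Whether the labels of the groups were exchanged was not tested, and an exchange would turn every direction given here. Library totals were 72500854 to 77198669 counts. Mitochondrial ribosomal RNA took 0.794% to 0.830% of counts in libraries labelled FOXF1-activated and 0.383% to 0.404% in the controls, and its part in the results was not tested. Epithelial keratins KRT7, KRT8 and KRT18 were present, while KRT5, TP63, UPK1A and UPK3A held 0 counts in all 6 libraries. The epithelial cadherin gene CDH1 held at most 4 counts in any library, and EPCAM was at 0.187 to 1.07 CPM. The 15 urothelial and epithelial markers summed to 1221 to 1307 CPM in libraries labelled FOXF1-activated and 1711 to 1836 CPM in the controls. Of the 8 tested, KRT7, KRT8 and EPCAM fell and PPARG rose. Of 14 immune cell markers, LILRA4 and CLEC4C of plasmacytoid dendritic cells held 0 counts, and the 14 together summed to 27.8 to 31.7 CPM in libraries labelled FOXF1-activated and 33.2 to 39.4 CPM in the controls. That order rests on CD68, a macrophage lysosomal marker, at 1.43 to 2.71 CPM in libraries labelled FOXF1-activated and 13.5 to 13.9 CPM in the controls. Without CD68, a sum chosen after seeing the data, the immune markers came to no less than 26.1 CPM in each library labelled FOXF1-activated and to 19.7 to 25.5 CPM in the controls. Of the 10 immune markers tested, PTPRC and CD3E rose and CD68 and CD8A fell. The 8 fibroblast markers summed to 317 to 505 CPM in libraries labelled FOXF1-activated and 417 to 467 CPM in the controls, and LUM and PDGFRB of them fell. The 5 endothelial markers summed to 5.64 to 14.7 CPM in libraries labelled FOXF1-activated and 5.82 to 9.98 CPM in the controls, and VWF of them rose (log2 fold change 3.54). What part these lists play in the results was not tested.

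Promoters of 7 of the 10 genes had an entry in the RefSeq-based table on GRCh38.p14, each 300 bases long, from 250 before to 50 after the annotated start. IFIH1 and TLR3 are shown because their windows hold the core letters of the interferon-stimulated response element, the DNA element bound by interferon-activated factors. RIGI fell alongside them without those letters, and TBK1 was the gene that rose. Capitals mark each match to the letters GAAA, any 2 bases, then GAAA, searched on both strands, so that a match on the other strand reads TTTC, any 2 bases, TTTC. Other spacings were not searched, such as gaaacgaaa in the RIGI window, so a window without capitals may still hold a related element.
IFIH1 promoter, chr2:162318635-162318934, minus strand: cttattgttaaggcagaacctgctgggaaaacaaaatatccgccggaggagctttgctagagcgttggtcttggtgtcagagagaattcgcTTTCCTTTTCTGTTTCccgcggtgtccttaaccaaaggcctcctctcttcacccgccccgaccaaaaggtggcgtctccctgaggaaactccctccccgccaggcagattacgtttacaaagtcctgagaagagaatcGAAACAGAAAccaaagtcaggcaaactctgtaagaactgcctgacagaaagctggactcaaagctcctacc
TLR3 promoter, chr4:186068906-186069205, plus strand: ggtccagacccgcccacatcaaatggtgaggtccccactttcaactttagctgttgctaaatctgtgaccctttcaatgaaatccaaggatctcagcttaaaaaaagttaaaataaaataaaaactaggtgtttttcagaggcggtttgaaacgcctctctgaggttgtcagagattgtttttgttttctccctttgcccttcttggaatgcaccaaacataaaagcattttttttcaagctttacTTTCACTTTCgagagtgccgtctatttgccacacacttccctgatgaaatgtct
RIGI promoter, chr9:32526147-32526446, minus strand: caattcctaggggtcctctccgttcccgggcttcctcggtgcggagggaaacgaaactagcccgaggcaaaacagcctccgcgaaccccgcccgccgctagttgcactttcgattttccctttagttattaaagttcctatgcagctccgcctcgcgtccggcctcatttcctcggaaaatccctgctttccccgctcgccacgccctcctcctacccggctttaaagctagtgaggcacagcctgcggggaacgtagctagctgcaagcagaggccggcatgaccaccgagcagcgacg
TBK1 promoter, chr12:64451870-64452169, plus strand: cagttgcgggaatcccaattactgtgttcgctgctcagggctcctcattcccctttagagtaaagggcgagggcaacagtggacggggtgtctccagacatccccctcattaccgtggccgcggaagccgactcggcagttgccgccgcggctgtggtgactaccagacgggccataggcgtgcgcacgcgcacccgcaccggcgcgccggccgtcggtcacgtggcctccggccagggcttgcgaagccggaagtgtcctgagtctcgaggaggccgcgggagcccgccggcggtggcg

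The core letters occurred 3 times in the IFIH1 window, at positions -159, -153 and -21 from the start, with the first and second matches overlapping, and 1 time in the TLR3 window, across the start. The MAVS, TICAM1 and TICAM2 windows, like those of RIGI and TBK1, had 0 matches. Of 35116 promoter windows of this length, 3.57% held the letters. The palindromic STAT-type letters TTCNNNGAA occurred 2 times in the TLR3 window, in none of the other 6, and in 7.66% of all windows. These matches describe the sequence and are not evidence of binding.

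Most genes of the sensor system had lower counts in libraries labelled FOXF1-activated. Of the 10 genes, 8 fell, TBK1 rose, and CGAS was not called, where a call is an edgeR adjusted p under 0.05 over all tested genes. In the same comparison 60.7% of all tested genes were called, 29.2% higher and 31.5% lower, so a single call is common. The 8 falls among 10 genes exceed the share of all genes that fell. The 10 were chosen with earlier results of these data known, so no such excess given here is independent of the choice. For 9 of the 10 genes all libraries of 1 group lay above all of the other, against 68.8% of tested genes. A called fall of at least 2-fold was seen for 6 genes, against 15.9% of tested genes that had both the call and a fall of that size. The median log2 fold change of the 10 was -1.39, beside -3.24e-05 over all tested genes. With TICAM2 and a read-through gene that shares most of its exonic bases summed into 1 row, as described further on, 7 of the 10 fell, 2 rose and the median was -0.89. In bulk RNA, fewer cells expressing a gene and less RNA per cell cannot be told apart.

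**Figure D1:**
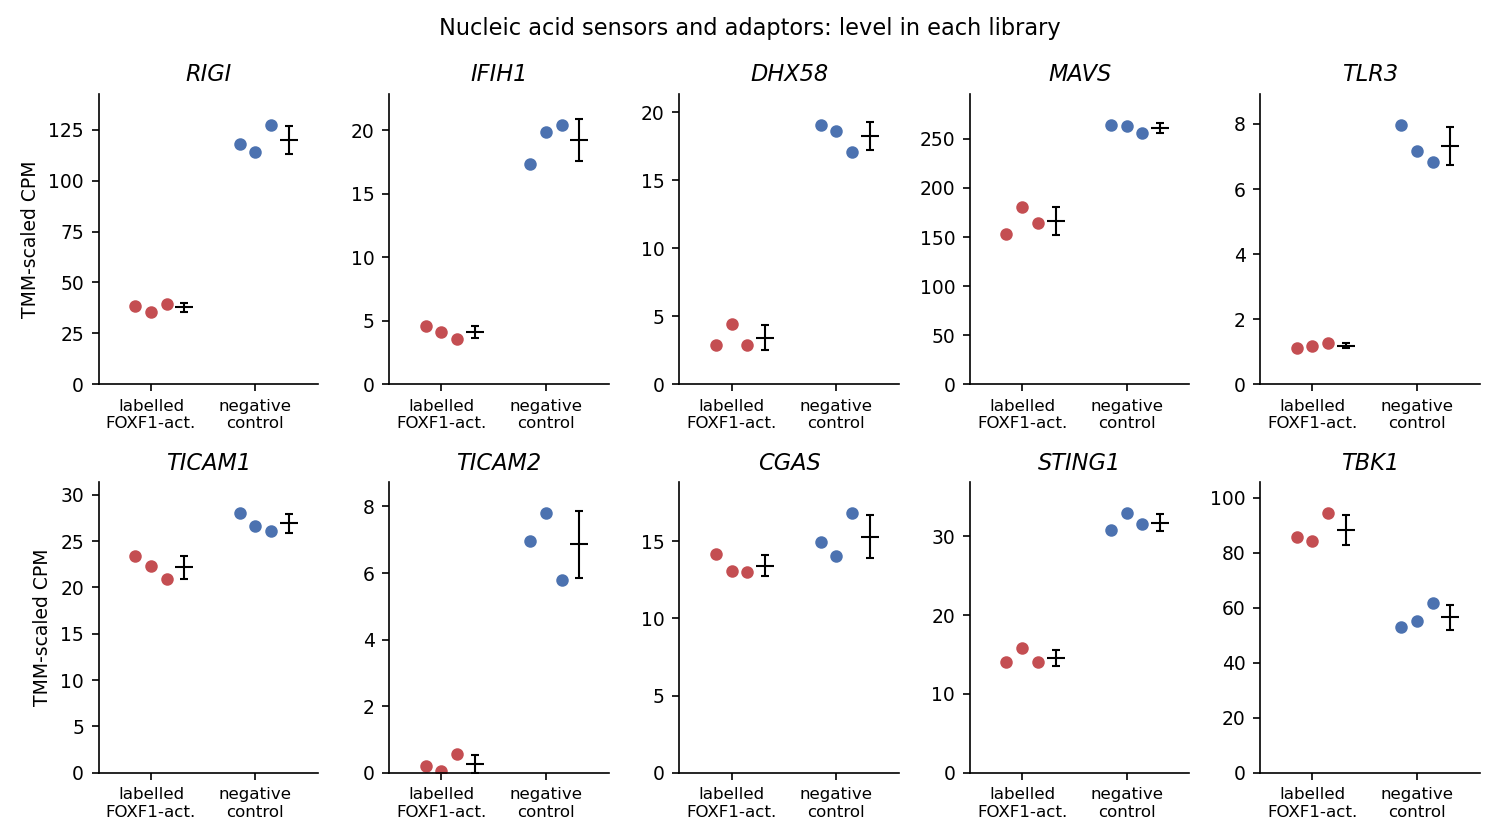
Level of each gene in each library, in TMM-scaled CPM on axes that start at 0, with libraries labelled FOXF1-activated in red and negative controls in blue; the black bar is the mean with its SD over 3 libraries. The red and blue points are separate for every gene except CGAS, and TBK1 is the gene with its red points on top.

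The cytosolic RNA sensors fell together. Values are given per library, then the log2 fold change with its standard error (SE). RIGI (ENSG00000107201; GENCODE 29 on GRCh38, chr9:32455705-32526324, minus strand) was at 38.6, 35.4 and 39.7 CPM in libraries labelled FOXF1-activated and at 118, 114 and 127 CPM in the controls. The groups were far apart and each was tight. Its log2 fold change was -1.66 (SE 0.07, edgeR adjusted p = 6.69e-08), and 8.30% of tested genes fell by as much or more. RIGI was the most abundant of the 3 sensors, and its level in libraries labelled FOXF1-activated was above the control level of IFIH1 or DHX58 per kilobase of exons.

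IFIH1 (ENSG00000115267; chr2:162267079-162318703, minus strand), which encodes the long-RNA sensor MDA5, was at 4.57, 4.10 and 3.60 CPM in libraries labelled FOXF1-activated and at 17.3, 19.8 and 20.4 CPM in the controls. All 3 values lay below all 3 control values, a fitted 4.69-fold fall (log2 fold change -2.23, SE 0.13, edgeR adjusted p = 5.23e-07). DHX58 (ENSG00000108771; chr17:42101404-42112733, minus strand) encodes LGP2, which lacks the signalling domains of the other sensors. It was at 2.92, 4.47 and 2.90 CPM in libraries labelled FOXF1-activated and at 19.1, 18.6 and 17.1 CPM in the controls. Replicate 2 of the first group stood above its partners, yet well under every control. DHX58 changed by -2.41 on the log2 scale (SE 0.18, edgeR adjusted p = 2.20e-06).

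The fitted falls of IFIH1 and DHX58 were larger than that of RIGI, and IFIH1 was not compared with DHX58. Within each library the log2 count ratio of IFIH1 to RIGI, which does not depend on library scaling, was -3.21 ± 0.21 in libraries labelled FOXF1-activated and -2.64 ± 0.12 in the controls (SD, n = 3 each; exact permutation test p = 0.1). For DHX58 to RIGI it was -3.49 ± 0.44 in libraries labelled FOXF1-activated and -2.71 ± 0.16 in the controls (SD, n = 3 each; exact permutation test p = 0.1). In both cases the groups did not overlap, and both ratios were lower in libraries labelled FOXF1-activated. With 3 against 3 libraries a two-sided test cannot go below 0.1, and all 5 ratios tested here, adjusted for the 5, stood at that value.

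MAVS, the mitochondrial adaptor shared by RIG-I and MDA5, had a smaller fitted fall than the sensors. The gene (ENSG00000088888; chr20:3846799-3876123, plus strand) was at 153, 181 and 164 CPM in libraries labelled FOXF1-activated and at 264, 263 and 256 CPM in the controls. The groups did not overlap. MAVS changed by -0.65 on the log2 scale (SE 0.07, edgeR adjusted p = 1.79e-05), and 26.7% of tested genes fell by as much or more, so a change of this size was ordinary here.

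TLR3, the endosomal double-stranded RNA receptor, was the least abundant of the 10 in the controls per kilobase of exons, and it fell strongly. TLR3 (ENSG00000164342; chr4:186069152-186088069, plus strand) was at 1.11, 1.18 and 1.25 CPM in libraries labelled FOXF1-activated, from 78 to 94 counts, and at 7.98, 7.17 and 6.84 CPM in the controls, from 512 to 637 counts. Both groups were tight and far apart. On the log2 scale the change was -2.63 (SE 0.17, edgeR adjusted p = 8.47e-07).

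TICAM1, which encodes the TLR3 adaptor TRIF, moved little. The gene (ENSG00000127666; chr19:4815932-4831704, minus strand) was at 23.3, 22.3 and 20.9 CPM in libraries labelled FOXF1-activated and at 28.0, 26.6 and 26.1 CPM in the controls. The groups did not overlap, and the log2 fold change was -0.28 (SE 0.08, edgeR adjusted p = 0.0136). That call was lost under upper-quartile scaling (-0.18, adjusted p = 0.0829), without negative control replicate 1 (-0.25, adjusted p = 0.0514) and with offsets for GC content and transcript length (-0.014, adjusted p = 0.890). The log2 count ratio of TICAM1 to TLR3 was 4.22 ± 0.17 in libraries labelled FOXF1-activated and 1.88 ± 0.06 in the controls (SD, n = 3 each; exact permutation test p = 0.1), with no overlap between groups.

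TICAM2 had the lowest fitted value of the 10, but its locus did not fall as a whole. TICAM2 (ENSG00000243414; chr5:115578650-115602479, minus strand), the gene of the bridging adaptor TRAM, held 14, 3 and 42 counts in libraries labelled FOXF1-activated, or 0.199, 0.0423 and 0.560 CPM. In the controls it held 557, 599 and 434 counts, or 6.98, 7.80 and 5.80 CPM. The log2 fold change was -4.66 (SE 0.58, edgeR adjusted p = 7.36e-05), and it ranged from -5.82 without FOXF1-activated replicate 3, the library with 42 counts, to -4.16 without FOXF1-activated replicate 2, the library with 3. TMED7-TICAM2 (ENSG00000251201; chr5:115578642-115626161, minus strand) is annotated as a read-through gene that joins exons of the upstream gene TMED7, of the secretory pathway, to the last exon of TICAM2. It shares 2666 of the 3244 exonic bases of TICAM2, or 82.2%, on the same strand, so reads from most of TICAM2 fit both genes.

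Annotated transcripts that enter the shared exon at its start differ at that join. Another TMED7-TICAM2 transcript enters that exon further in, and a TICAM2 transcript without that exon is also annotated. The last 15 bases of the upstream exon are in lower case and the first 15 bases of the shared exon in capitals, from GENCODE 29 transcript sequences. Reads that stay inside the shared exon do not tell the joins below apart.
TICAM2 join: ggcgctcgcctgcagATTGAAAAGAAATGC
TMED7-TICAM2 join: aagagtggcctattgATTGAAAAGAAATGC

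Counts given to the read-through gene went the other way. TMED7-TICAM2 was at 51.3, 32.9 and 42.2 CPM in libraries labelled FOXF1-activated and at 10.6, 8.76 and 13.6 CPM in the controls (log2 fold change 1.94, SE 0.19, edgeR adjusted p = 1.50e-05). TMED7 itself was at 263, 223 and 231 CPM in libraries labelled FOXF1-activated and at 102, 102 and 99.6 CPM in the controls (log2 fold change 1.24, edgeR adjusted p = 3.34e-07). TICAM2-AS1, on the opposite strand over the first exon of TICAM2, held 57 to 98 counts in libraries labelled FOXF1-activated and 28 to 36 in the controls, and rose (log2 fold change 1.44, edgeR adjusted p = 0.0057). With TICAM2 and the read-through gene summed into 1 row, an alternative chosen after seeing the data, the sum was 3632, 2338 and 3208 counts in libraries labelled FOXF1-activated and 1402, 1272 and 1451 in the controls. That sum rose (log2 fold change 1.25, SE 0.15, edgeR adjusted p = 5.46e-05), the opposite direction to the TICAM2 row.

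The share of the summed counts that was given to TICAM2 was 0.385%, 0.128% and 1.31% in libraries labelled FOXF1-activated and 39.7%, 47.1% and 29.9% in the controls. Exact 95% binomial intervals reached no higher than 1.77% in libraries labelled FOXF1-activated and no lower than 27.6% in the controls. They cover counting error only and take each count as a separate read, so they may be too narrow. No source used here names the counting tool, and whether this split reflects transcript choice or the assignment of shared reads was not tested. 

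**Figure D2:**
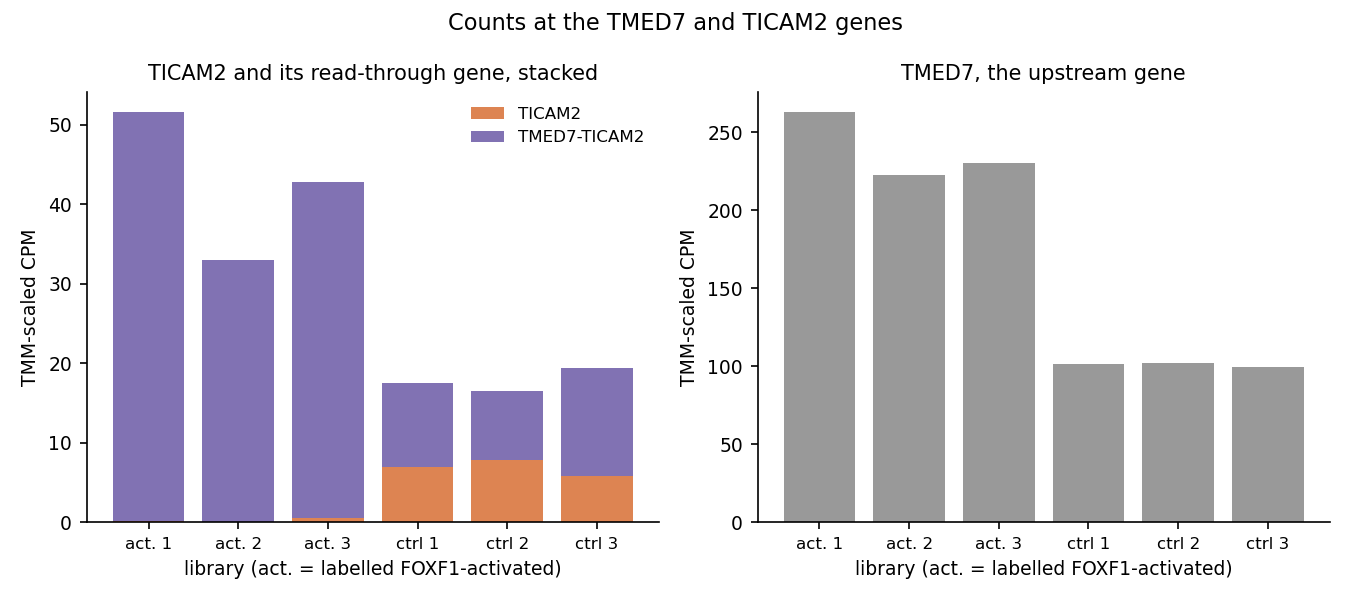
TMM-scaled CPM in each library for TICAM2 stacked with the read-through gene TMED7-TICAM2 (left) and for TMED7 (right), with act. for libraries labelled FOXF1-activated and ctrl for negative controls. TICAM2 nearly vanishes in the act. libraries while the stack as a whole is taller there, at 33.0 to 51.6 CPM, against 16.6 to 19.4 CPM in the ctrl libraries.

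Of the DNA branch, the adaptor fell and the sensor did not pass the test. CGAS (ENSG00000164430; chr6:73413515-73452276, minus strand), the gene of the DNA sensor, was at 14.2, 13.1 and 13.0 CPM in libraries labelled FOXF1-activated and at 15.0, 14.1 and 16.8 CPM in the controls. The groups overlapped, and the log2 fold change of -0.19 had a 95% interval from -0.42 to 0.05 (edgeR adjusted p = 0.151). The interval leaves out a change of the size seen for the RNA sensors, and it does not show that the level was equal. DDX43 overlaps CGAS on the opposite strand over 4.33% of its exonic bases and held 4 to 14 counts in libraries labelled FOXF1-activated and 0 in the controls.

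STING1 (ENSG00000184584; chr5:139475534-139482935, minus strand), the endoplasmic reticulum adaptor that cGAS activates, was at 14.0, 15.8 and 14.0 CPM in libraries labelled FOXF1-activated and at 30.8, 32.9 and 31.5 CPM in the controls. The groups were apart by more than their spread. STING1 changed by -1.12 on the log2 scale (SE 0.09, edgeR adjusted p = 2.73e-06), a 2.17-fold fall. The log2 count ratio of STING1 to CGAS was 0.12 ± 0.14 in libraries labelled FOXF1-activated and 1.06 ± 0.16 in the controls (SD, n = 3 each; exact permutation test p = 0.1), again with no overlap.

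TBK1, the kinase below all of these adaptors, was the member that rose. The gene (ENSG00000183735; chr12:64451880-64502108, plus strand) was at 85.9, 84.4 and 94.4 CPM in libraries labelled FOXF1-activated and at 52.9, 55.1 and 61.7 CPM in the controls. All values of the first group lay above all controls. The log2 fold change was 0.64 (SE 0.07, edgeR adjusted p = 4.42e-05), and 25.6% of tested genes rose by as much or more. The antisense gene AC135279.3 (ENSG00000277895) covers 14.7% of the exonic bases of TBK1 at its start and held 41 to 53 counts in libraries labelled FOXF1-activated and 13 to 34 in the controls, under 1% of the TBK1 counts. The log2 count ratio of TBK1 to MAVS was -0.91 ± 0.17 in libraries labelled FOXF1-activated and -2.21 ± 0.14 in the controls (SD, n = 3 each; exact permutation test p = 0.1).

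**Figure D3:**
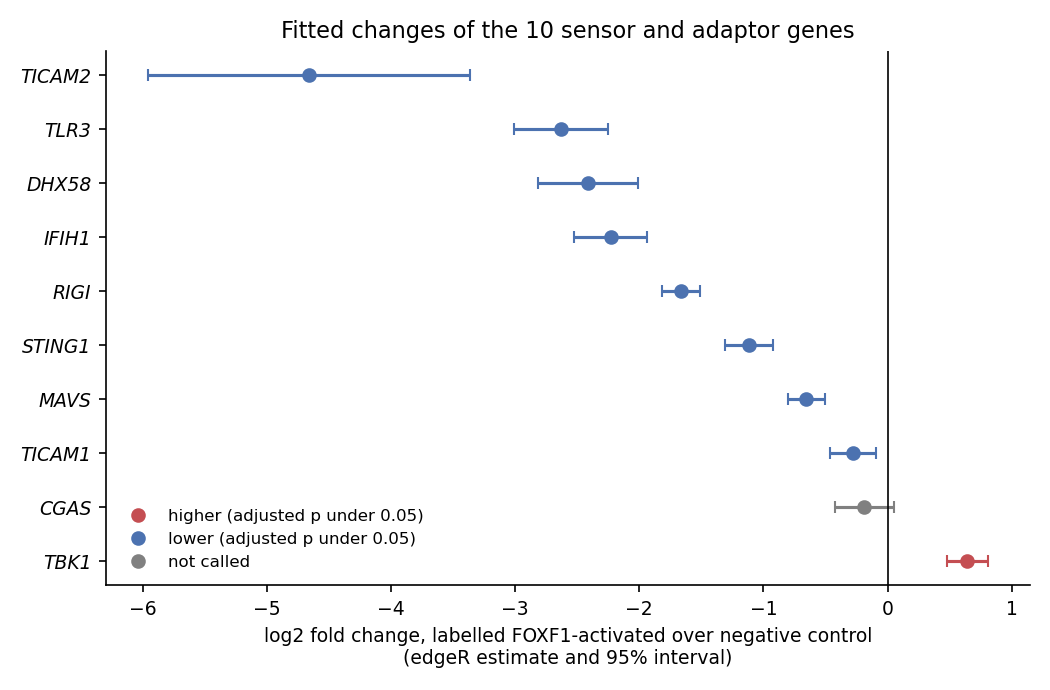
Fitted log2 fold change of each gene, libraries labelled FOXF1-activated over negative controls, with its 95% interval, ordered from the lowest. TICAM2 stands lowest with the widest interval, CGAS is the gene whose interval spans 0, and TBK1 is the gene to the right of 0 at 0.64. The TICAM2 value depends on how reads shared with its read-through gene were assigned, which its interval does not cover. Summed with that gene, it was at 1.25.

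Because CPM grows with gene length, levels of different genes were compared as CPM per kilobase of exons. In libraries labelled FOXF1-activated TBK1 came first at 18.5 ± 1.1, then MAVS at 14.1 ± 1.2, RIGI at 8.71 ± 0.51, TICAM1 at 8.29 ± 0.47, STING1 at 3.79 ± 0.26 and CGAS at 3.23 ± 0.16 (SD, n = 3). Below them lay DHX58 at 0.893 ± 0.235, IFIH1 at 0.801 ± 0.095, TLR3 at 0.176 ± 0.011 and TICAM2 at 0.0824 ± 0.0819. The place of TICAM2 in both groups depends on how reads were split with its read-through gene, which shares 82.2% of its exonic bases. In the controls RIGI came first at 27.6 ± 1.6 CPM per kilobase, then MAVS at 22.2 ± 0.4, TBK1 at 11.9 ± 1.0, TICAM1 at 10.1 ± 0.4, STING1 at 8.24 ± 0.29, DHX58 at 4.75 ± 0.27, IFIH1 at 3.76 ± 0.32, CGAS at 3.68 ± 0.34, TICAM2 at 2.11 ± 0.31 and TLR3 at 1.09 ± 0.09. Neighbours whose libraries overlapped were RIGI and TICAM1, DHX58 and IFIH1, and TLR3 and TICAM2 in the first group, and IFIH1 and CGAS in the controls. RIGI thus held rank 3 in libraries labelled FOXF1-activated and rank 1 in the controls, while TBK1 held rank 1 in libraries labelled FOXF1-activated and rank 3 in the controls.

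**Figure D4:**
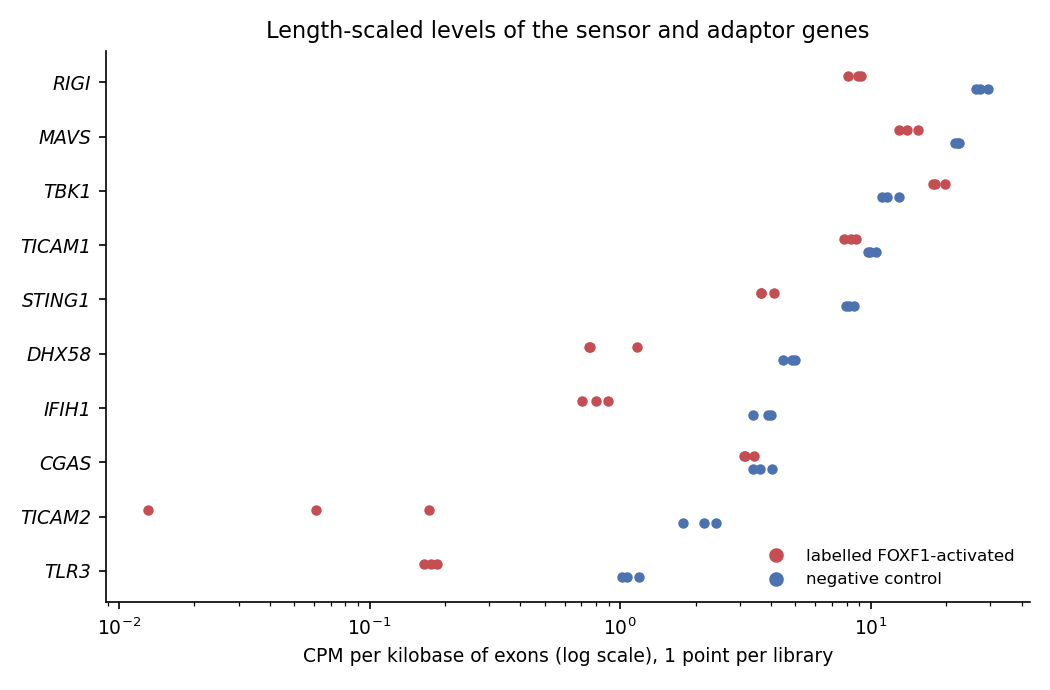
CPM per kilobase of exons on a log axis, with 1 point per library, red for libraries labelled FOXF1-activated and blue for negative controls, genes ordered by control level. RIGI leads in the controls at 27.6 and TBK1 leads in libraries labelled FOXF1-activated at 18.5. The place of TICAM2 depends on how reads shared with its read-through gene were assigned.

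Other genes of the same pathways were grouped in lists by role, chosen with earlier results of these data known. Over all tested genes 29.2% were called higher and 31.5% lower, and the counts in each list are to be read beside those shares. Near them lie the 6 falls in the first list and the rises in the Toll-like receptor, DNA sensing and kinase lists. Partners and regulators of RNA sensing went both ways: of 20 genes, all tested, 9 rose and 6 fell, with a median log2 fold change of 0.07. DDX60, an interferon-induced helicase linked to RIG-I signalling, fell to 8.48 ± 0.60 CPM in libraries labelled FOXF1-activated, against 61.7 ± 5.5 CPM in the controls (SD, n = 3 each; log2 fold change -2.86, edgeR adjusted p = 2.59e-08). NLRX1, a mitochondrial NOD-like protein reported to restrain MAVS, fell by 1.56 on the log2 scale. Named factors that help RIG-I bind RNA or be ubiquitinated went both ways. ZCCHC3 (log2 fold change 1.18) and TRIM25 (0.74) rose, while RNF135, the ubiquitin ligase Riplet, fell by 0.85. TRAF3, a ligase recruited by MAVS, fell by 0.34. EIF2AK2, the double-stranded RNA kinase PKR and an interferon-induced gene, was at 122, 103 and 113 CPM in libraries labelled FOXF1-activated and at 113, 100.4 and 53.1 CPM in the controls, with no call (log2 fold change 0.34, edgeR adjusted p = 0.216). Control replicate 3 stood apart from its partners for that gene.

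Of 18 genes of Toll-like receptors and endosomal handling, 15 were tested, of which 4 rose and 8 fell (median log2 fold change -0.45). MYD88, the adaptor of most Toll-like receptors, was at 21.7 ± 1.4 CPM in libraries labelled FOXF1-activated and 55.5 ± 3.5 CPM in the controls (SD, n = 3 each; log2 fold change -1.35, edgeR adjusted p = 4.92e-07). The endosomal proteases split, with the cathepsin gene CTSB at a log2 fold change of -1.06 and CTSL at 1.20, and the ubiquitin ligase gene PELI1, which acts downstream of TRIF, rose (1.48). UNC93B1, which escorts TLR3 from the endoplasmic reticulum to endosomes, was at 24.8 ± 2.0 CPM in libraries labelled FOXF1-activated and 22.9 ± 2.4 CPM in the controls (SD, n = 3 each) and was not called (log2 fold change 0.12, edgeR adjusted p = 0.368), although it was called higher with GC and length offsets (0.37, adjusted p = 0.00622). TLR9, an endosomal DNA receptor singled out after its values were seen, was at 2.43, 2.58 and 2.80 CPM in libraries labelled FOXF1-activated and at 0.526, 0.273 and 0.0534 CPM in the controls. The log2 fold change of TLR9 was 3.18 (edgeR adjusted p = 8.32e-04), and with 1 library left out it ranged from 2.69, without negative control replicate 3, to 3.97, without negative control replicate 1. Another annotated gene (ENSG00000173366) covers 86.3% of the exonic bases of TLR9 on the same strand and held 0 counts in all 6 libraries. TLR7 and TLR8, the endosomal receptors of single-stranded RNA, held at most 12 counts in any library and were not tested.

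Partners of DNA sensing also split, 4 higher and 7 lower of 12 tested among 13 listed (median log2 fold change -0.34). SURF4, a cargo receptor that returns STING1 to the endoplasmic reticulum, rose to 495 ± 5 CPM in libraries labelled FOXF1-activated, against 249.8 ± 4.9 CPM in the controls (SD, n = 3 each; log2 fold change 0.99, edgeR adjusted p = 1.35e-07). STIM1, a calcium sensor reported to hold STING1 in the endoplasmic reticulum, fell by 1.33 on the log2 scale. The DNA-dependent kinase gene PRKDC fell by 0.58, ENPP1, which hydrolyses the product of cGAS outside cells, fell by 1.74, and the DNA sensor gene IFI16 fell by 0.37. AIM2, another DNA sensor, held 0 counts in all libraries labelled FOXF1-activated and 4 to 8 in the controls, too few to test.

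Genes that clear or edit nucleic acids were lower where they were called. Of 11 tested, 8 fell and the other 3 were not called (median log2 fold change -0.35), against 31.5% of all tested genes called lower. All 3 subunit genes of RNase H2, which removes ribonucleotides from DNA, fell, RNASEH2A by 1.30, RNASEH2B by 0.70 and RNASEH2C by 0.63 on the log2 scale. KAT5, which fell by 0.43, covers 28.2% of the exonic bases of RNASEH2C on the opposite strand, and THSD8, with at most 8 counts in any library, covers 30.8% of those of RNASEH2A on the same strand. SAMHD1, a deoxynucleotide hydrolase, fell by 0.44, and ADAR, which edits double-stranded RNA, fell by 0.23, a call lost under upper-quartile scaling (-0.13, adjusted p = 0.0783). DNASE1L1 fell by 1.01 on the log2 scale, but 39.9% of its exonic bases lie under RPL10, which fell by 1.26, on the opposite strand. TREX1, the cytosolic DNA exonuclease, lies wholly within exons of ATRIP on the same strand, and its value of -0.17 without a call (edgeR adjusted p = 0.828) is uncertain for that reason.

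Genes that act beneath the adaptors moved both ways. Of 14 genes of kinases, transcription factors and their partner proteins, 4 rose and 7 fell (median log2 fold change -0.12). All 4 interferon regulatory factor genes in the list fell, with IRF7 at 7.77 ± 0.99 CPM in libraries labelled FOXF1-activated and 31.8 ± 2.9 CPM in the controls (SD, n = 3 each; log2 fold change -2.03, edgeR adjusted p = 5.29e-07). IRF1 fell by 1.68, IRF5 by 0.83 and IRF3, the substrate of TBK1, by 1.11 on the log2 scale. On the opposite strand IRF1-AS1, which fell by 2.09, covers 22% of the exonic bases of IRF1, and BCL2L12, which rose (log2 fold change 0.95), covers 19.4% of those of IRF3. IKBKE, the kinase closest to TBK1, went the opposite way from it and fell to 7.75 ± 0.46 CPM in libraries labelled FOXF1-activated, against 24.1 ± 1.3 CPM in the controls (SD, n = 3 each; log2 fold change -1.64, edgeR adjusted p = 5.81e-07). The 4 that rose were genes of the classical NF-kB kinase route, IKBKG (0.81), TAB2 (0.53), CHUK (0.45) and IKBKB (0.30), and IKBKG shares sequence with its pseudogene IKBKGP1, so its value is uncertain.

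Apart from IFNE, the interferon transcripts listed held at most 8 counts in any library. IFNB1 held 0 counts in each library labelled FOXF1-activated and 8, 0 and 4 in the controls, and IFNL1, IFNL2, IFNL3 and IFNA2 held 0 in all 6 libraries, where 3 counts, or 0.0426 CPM in the library with the fewest scaled counts, is the limit that 0 allows. Of the 11 genes in this list, 3 were tested, and CXCL11, a chemokine gene induced by interferon, was the gene called. CXCL11 held 0 counts in all 3 libraries labelled FOXF1-activated and 43, 51 and 12 in the controls. That was 33.0-fold lower or more if 3 counts over the group are allowed and each count is a separate read. Counts of 4, 8 and 12 were over-frequent in these data, so this bound and the limit for 0 counts may be too tight. CXCL10, of the same family, held 0 counts in each library labelled FOXF1-activated and 0, 36 and 10 in the controls, and was not tested. CCL5, at 0.28 on the log2 scale (edgeR adjusted p = 0.337), and IFNE, the interferon epsilon gene, at 0.12 (adjusted p = 0.910), were not called. IFNE held 4, 24 and 52 counts in libraries labelled FOXF1-activated and 26, 10 and 41 in the controls, so the groups overlapped.

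**Figure D5:**
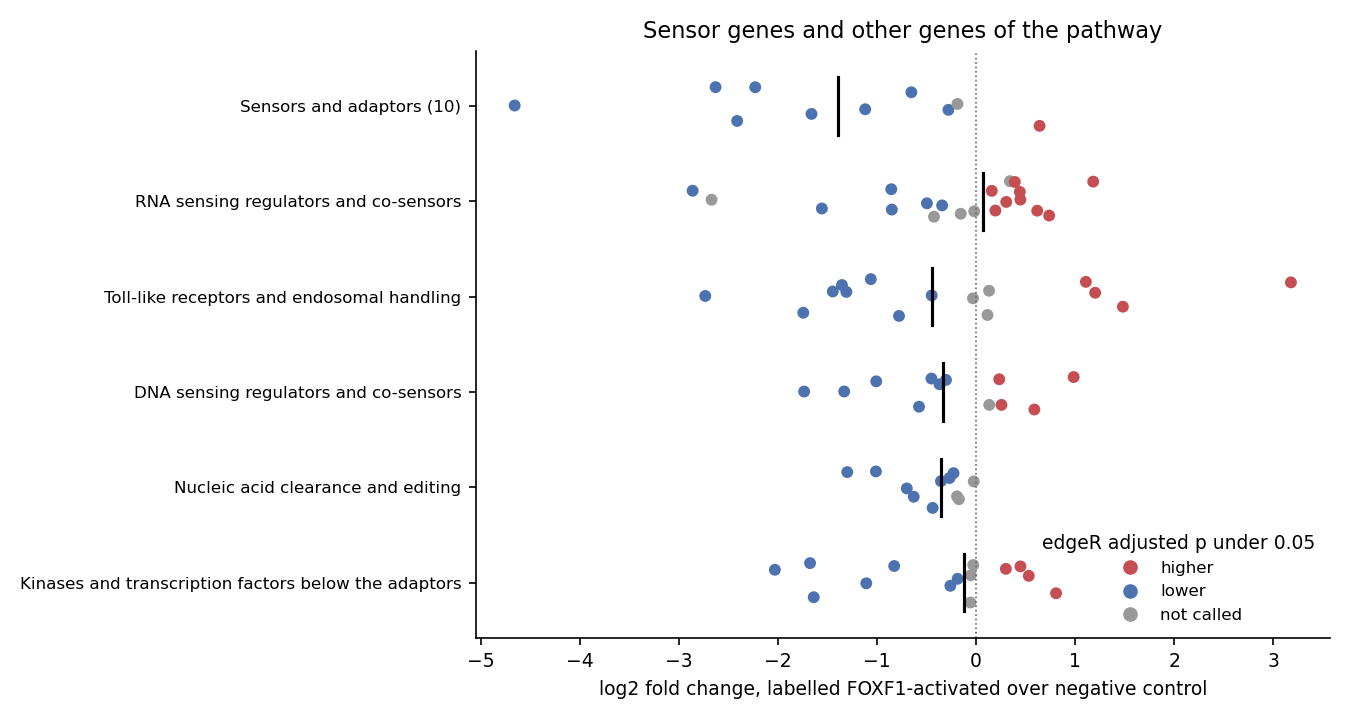
Log2 fold change of the 10 sensor and adaptor genes and of tested genes in 5 lists of the same pathways, 1 point per gene, with red for higher, blue for lower and grey for no call, and a black bar at each median; vertical scatter has no meaning. The median of the 10 lies at -1.39 (-0.89 with the TICAM2 locus as 1 row), and those of the 5 lists lie between -0.45 and 0.07.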

How the data were processed

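RNA was measured in 6 libraries, 3 labelled FOXF1-activated and 3 labelled negative control, grouped by their titles. The deposited file holds whole-number counts per Ensembl gene, with no normalisation. Cutadapt 1.9, TopHat2 2.0.4 and the build GRCh38 are named, per the submitters' processing notes. How reads were counted, with which annotation and whether by strand, is not given in the sources used here. Overlapping and antisense genes may therefore share reads. Counts of 4, 8 and 12 were 2.36, 1.94 and 1.60 times as frequent as their neighbours, so counts may overstate the depth.

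Symbols matched 60401 identifiers, and coordinates and exon lengths are GENCODE 29's. Genes were filtered with filterByExpr (minimum count 10, minimum total 15), scaled by TMM and tested in edgeR 4.0.16 (R 4.3.3; quasi-likelihood F-test, no covariates). P-values were Benjamini-Hochberg adjusted over 20334 genes, with a threshold of 0.05. A standard error is the log2 fold change divided by the square root of F. Ratios used a pseudocount of 0.5 and exact permutation of libraries. The test was also run on simulated counts in which few genes changed, so that run does not cover the widespread change seen here.

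Libraries of 1 group differed beyond counting error (chi-square per degree of freedom 19.9 to 33.2), so none was treated as a duplicate. Named genes were the 10 members, FOXF1, overlapping genes, the 4 smallest p of each list and preset regulators; TLR7, TLR8, TLR9, AIM2, RNASEH2C, IRF5, IKBKG, TAB2, CHUK and IKBKB were named after their values were seen. The members and lists were chosen with earlier results of these data known. Alternatives included DESeq2 1.42.0 and limma 3.58.1.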

Additional observations from a re-analysis of the deposited data

How the results depend on the processing

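Under 17 alternatives (other scalings, filters, DESeq2, limma-voom, a replicate block, a prior count of 2, counts divided by 4, GC and length offsets and leaving out each library), 167 of 170 values of the 10 genes kept their direction and side of the threshold. The exceptions were for TICAM1, at -0.18 with upper-quartile scaling, -0.014 with GC and length offsets, and between -0.32 and -0.24 with a library left out, where the call was lost without negative control replicate 1. The cause was not tested. Between 7 and 8 genes were called lower and 1 higher in all 17. The median log2 fold change moved to -1.36 with DESeq2's size factors, its test or counts divided by 4, -1.29 with upper-quartile scaling, -1.47 with library totals, -1.35 with the 1 CPM filter and -1.30 with GC and length offsets, and to -0.89 with the summed TICAM2 row. GC and length offsets, and the summed TICAM2 row, were chosen after seeing the data.

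The number of interferon and chemokine genes called lower was 0 with counts divided by 4 and after filtering at 1 CPM, which both test fewer low genes, and 1 to 2 with a library left out. Values without a call changed sign for IFNE (-0.20 with limma-voom, -0.11 with the replicate block, -0.76 without FOXF1-activated replicate 3, -0.26 without negative control replicate 2, and up to 0.66 with another library left out) and for TREX1 (0.0026 with GC and length offsets, 0.30 without FOXF1-activated replicate 3, 0.094 without negative control replicate 2, and down to -0.99 with another library left out). The replicate numbers gave no sign of pairing, with correlations of deviations of -0.018, 4.19e-04 and -0.052. With the replicate block TICAM1 was at -0.28 (adjusted p = 0.0196) and no call among the 10 genes changed. Depth limits the interferons, TLR7, TLR8 and AIM2. TICAM2 is limited by the split of reads shared with its read-through gene, and by its few counts in libraries labelled FOXF1-activated.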
